A study of Bos taurus with 34 samples.

Results

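The genes described here are the WNT ligands, their receptors, the secreted proteins that tune them and the core of the β-catenin pathway, read in single bovine preimplantation embryos. They were chosen by a rule on gene symbols that uses no measured value, though earlier results of these data were known. Of the 18826 genes in either deposited table, 55 qualified: 18 WNT ligands, 3 R-spondins, 7 secreted inhibitors of the DKK and SFRP families, 10 Frizzled receptors, 4 co-receptors (LRP5, LRP6, ROR1 and RYK), 9 intracellular components and 4 TCF/LEF transcription factors. All 55 were in the blastocyst table of 18442 genes, and 42 were in the morula table of 14878 genes. The other 13 (WNT1, WNT2, WNT7A, WNT8B, WNT10B, WNT16, RSPO1, RSPO2, DKK2, SFRP2, SFRP4, ROR1 and LEF1) were analysed in blastocysts alone.

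WNT proteins are secreted, lipid-modified ligands that bind Frizzled receptors. With LRP5 or LRP6 as co-receptor they recruit Dishevelled (DVL) and AXIN to the membrane, which holds back the complex of AXIN, APC and GSK3 that otherwise marks β-catenin, the product of CTNNB1, for destruction. β-Catenin that escapes enters the nucleus and works with TCF/LEF factors, of which TCF7L1 is known mainly as a repressor. Other ligands, of which WNT5A is the best known, act through ROR and RYK receptors on cell polarity without β-catenin. R-spondins strengthen the signal, and DKK and SFRP proteins weaken it. In the preimplantation embryo the pathway is studied for its part in the trophectoderm, the outer layer that forms the placenta, and in the inner cell mass.

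The embryos were knockouts or controls for CSF2RA, the receptor subunit that binds CSF2, a cytokine made by oviduct and uterus. The sample titles write the knockout as CSF2KO, where the series title names CSF2RA, and both gene names stand for what the labels give. The 26 blastocysts were 9 knockouts (7 female, 2 male) and 17 controls (8 female, 9 male). The 8 morulae were 4 knockouts (3 female, 1 male) and 4 controls (1 female, 3 male), so that sex and genotype overlap only in part. Every embryo, control or knockout, carries a treatment note of added recombinant Wnt5A and a growth note of development in vitro, whereas the series title and design place the embryos in utero and in vivo. Which of these holds could not be settled, and no embryo is labelled as free of Wnt5A, so added Wnt5A cannot be told apart from anything else that all groups share. Embryo age and the way the knockout was made are not given in the sources used here.

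Each value is 1 embryo. Whole reads could be recovered for 100% of genes in every embryo, within a tolerance of 0.01 reads. Totals ran from 44879 reads (knockout blastocyst 57) to 17598170 reads (control blastocyst 37) in blastocysts, with medians of 254758 in knockouts and 878069 in controls. In morulae they ran from 43679 (knockout morula 49) to 1526852 (control morula 39), with medians of 87893 in knockouts and 314122 in controls. Control blastocyst 37 alone held 49.4% of all blastocyst reads and 37.8% of those in the WNT members. Control blastocyst 12 stood apart, with 2791 genes detected from 893152 reads, and knockout morulae 21 and 49 had 4392 and 4956 genes. Those 3 libraries and knockout blastocyst 57 are called the libraries in doubt. Tests of the members are also given without them, as are blastocyst medians of values described below that they move by over 1.5 times. CSF2RA had 2 reads in 1 knockout blastocyst and 2 reads in 2 control blastocysts, too few to check the labels. Of the listed markers, 13 of 14 for trophectoderm, 5 of 6 for epiblast and 6 of 6 for hypoblast were in the blastocyst table, and those lineages were read in both stages. KRT8, for example, had reads in 26 of 26 blastocysts and 8 of 8 morulae, and the pluripotency factor POU5F1 in 25 of 26 and 7 of 8.

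Most of the pathway was read, thinly, in blastocysts. All 55 members had at least 1 read in the 26 blastocysts, 45 had at least 10 reads in all, and 31 were read in at least 13 of the 26 embryos. All 42 members had a read in the 8 morulae, 29 had at least 10 reads, and 25 were read in at least 4 embryos. The members took 0.0382% to 0.145% of the reads of a control blastocyst and 0.0870% to 0.125% of those of a knockout. By role, every Frizzled, co-receptor, intracellular member and TCF/LEF factor had at least 10 reads in blastocysts, against 13 of 18 ligands, 4 of 7 secreted inhibitors and 1 of 3 R-spondins.

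**Figure D1:**
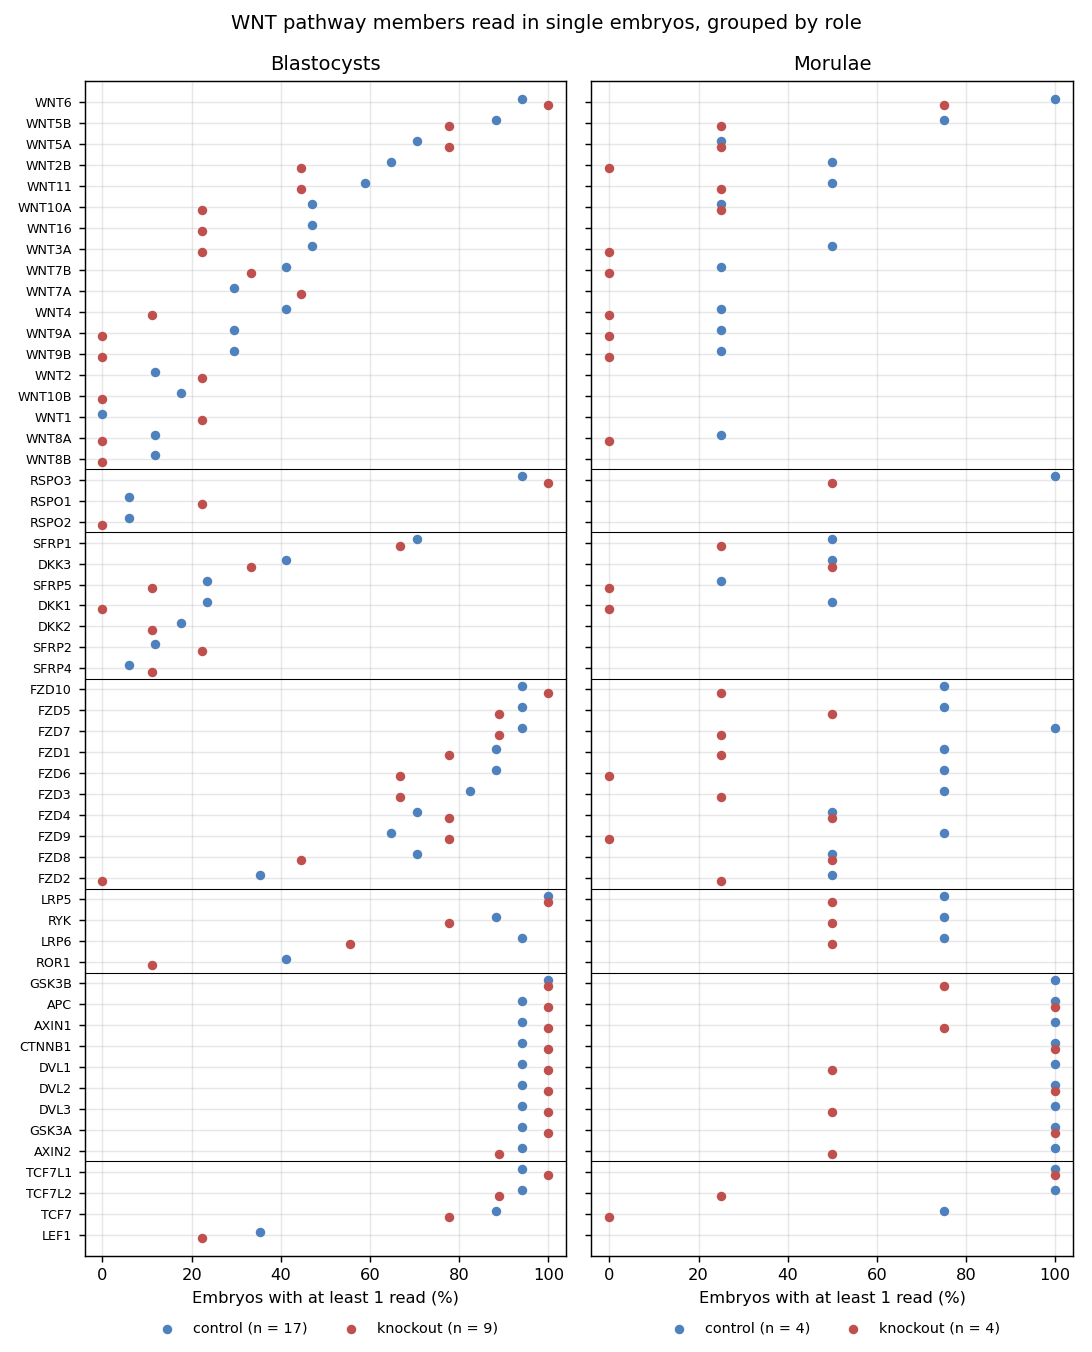
Share of embryos with at least 1 read (x axis, percent) for each of the 55 members (y axis), grouped by role and ordered by the number of blastocysts read, in control (blue) and knockout (red) embryos; members with no point in the right panel were analysed in blastocysts alone. Intracellular members sit near 100% in blastocysts, and most ligands and secreted inhibitors far to the left.

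How many members an embryo showed moved with how deeply it was sequenced. Knockout blastocysts had 21 to 40 members with a read (median 29) and control blastocysts 6 to 51 (median 34). When every blastocyst was thinned to 44879 reads, the expected number was 14.2 to 21 in knockouts (median 16.8) and 3.81 to 19.1 in controls (median 17.4), and the groups overlapped. In morulae thinned to 43679 reads it was 6.34 to 16.98 in knockouts (median 12.2) and 14.1 to 18.8 in controls (median 16.3). Knockout morula 21 was the lowest there. Control blastocyst 12 had reads in only 6 members (LEF1, RSPO3, WNT7A, TCF7L2, LRP5 and GSK3B), each with a genomic span of 64230 to 215081 bases, and none in 10 members read in every other blastocyst.

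**Figure D2:**
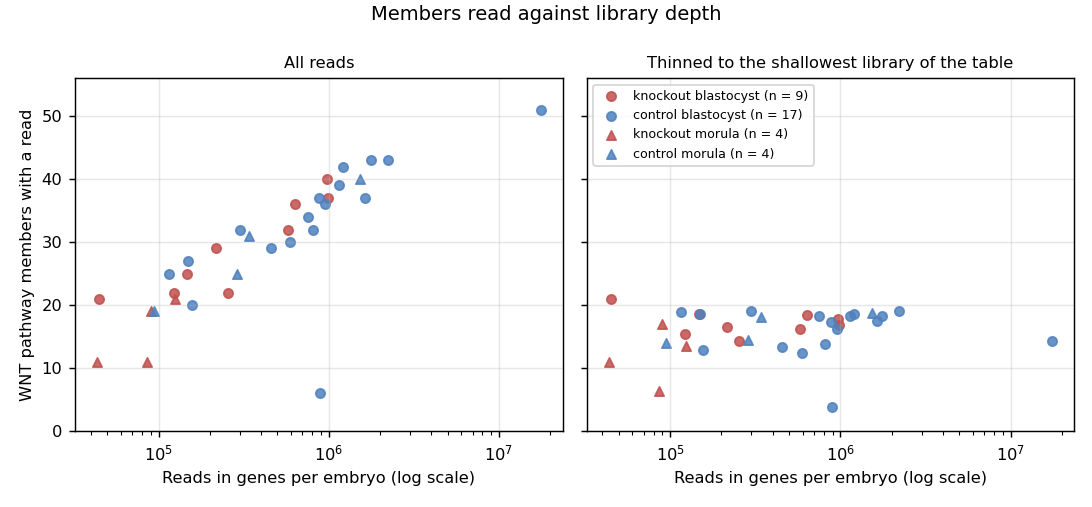
Number of WNT pathway members with a read (y axis) against reads per embryo (x axis, log scale), as sequenced (left) and thinned to the shallowest library of each table (right), for knockout (red) and control (blue) blastocysts (circles) and morulae (triangles). The count climbs from 11 to 51 with depth on the left and lies mostly between 11 and 21 on the right, with control blastocyst 12 at the bottom of both panels.

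Levels below are RPKM, reads scaled by library size and by gene length, where the length is the genomic span with introns included. Genes with long introns are therefore understated against compact genes, and an order of levels between genes holds only on that scale. The medians and ranges that follow are over embryos of 1 genotype and stage.

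Among the ligands, WNT6 (chromosome 2, from 106822087 to 106835094 on ARS-UCD1.2) stood far above the rest. It had 3486 reads in 25 of 26 blastocysts and was higher than WNT5B, the next ligand, in 25 of them. Its level was 1.27 to 12.7 RPKM in knockouts (median 7.75) and 0 to 25.1 in controls (median 8.61). The 0 was control blastocyst 12, the lowest other value was the shallow knockout 57, and the highest was control 72. WNT6 supplied a median of 84.4% of the summed ligand RPKM in knockout blastocysts and 84.2% in controls.

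WNT6 led in morulae as well, in 7 of 8 embryos. The 4 controls had 3.96, 7.55, 3.79 and 8.59 RPKM, and the 4 knockouts 3.17, 0, 3.46 and 6.17. The knockout at 0 was morula 21, and the remaining knockouts lay inside or just under the control range. The order of embryos in this and later lists is control 73, 39, 41 and 54, then knockout 5, 21, 49 and 1.

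WNT5B and WNT5A, ligands best known for signalling apart from β-catenin, came next. WNT5B had 241 reads in 22 blastocysts, with a median of 0.301 RPKM in knockouts and 0.598 in controls, and it was higher than WNT5A in 20 embryos against 4. WNT5A had 81 reads in 19 blastocysts. Its median was 0.284 RPKM in knockouts (range 0 to 2.96) and 0.101 in controls (0 to 0.961), and the groups overlapped. The 2.96 was knockout 57 and rested on 3 reads. In morulae WNT5A had 9 reads, of which 8 were in control 39 and 1 in knockout 21, and WNT5B had 9 reads in 4 embryos. The added Wnt5A named in the labels was recombinant Wnt5A, and these reads count transcripts of the embryo's own gene.

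The other ligands were rare. WNT11 (63 reads), WNT2B (61), WNT10A (56), WNT16 (39), WNT7A (35), WNT9B (26), WNT3A (24), WNT4 (23), WNT7B (23) and WNT9A (15) were each read in 5 to 15 of 26 blastocysts. WNT8A had 6 reads, WNT2 and WNT10B 5 each, WNT1 3 and WNT8B 2. WNT8A, WNT8B, WNT9A, WNT9B and WNT10B had no read in any knockout blastocyst, where 0 reads of 3964134 allow up to 0.757 RPM (reads scaled to library size alone), and WNT1 had none in any control, where 0 of 31628972 allow up to 0.0948 RPM, or 0.214 RPM without control 37. These limits cover counting error only. In morulae WNT11 had 10 reads, WNT3A 6 and WNT9A 3, and WNT2B, WNT4, WNT7B, WNT8A, WNT9B and WNT10A had 2 each.

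Of the R-spondins, which bind LGR receptors, only RSPO3 (chromosome 9, from 24092377 to 24187122) was read broadly, with 641 reads in 25 of 26 blastocysts. RSPO1 had 8 reads in 3 embryos and RSPO2 had 1. RSPO3 medians were 0.156 RPKM in knockout and 0.188 in control blastocysts. In morulae RSPO3 was 0.217, 0.160, 0.149 and 0.144 RPKM in controls and 0.435, 0, 0 and 0.931 in knockouts. All 4 controls fell between the knockouts that had reads and the 2 in doubt that had none.

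The secreted inhibitors were sparse. SFRP1, which binds WNT proteins, had the most reads, 125 in 18 of 26 blastocysts, with a median of 0.0477 RPKM in knockouts and 0.0746 in controls (0.0751 and 0.0761 without the libraries in doubt). DKK1, which blocks LRP5 and LRP6, had 68 reads in 4 control blastocysts, 64 of them in control 37, and none in knockouts. DKK3 and SFRP5 had 22 reads each, DKK2 and SFRP2 5 each, and SFRP4 4. In morulae SFRP1 had 21 reads in 3 embryos and DKK3 16 in 4. DKK1 had 8 in 2 controls and SFRP5 had 4 in 1 control. Neither had a read in knockout morulae, where 0 reads of 344068 allow up to 8.72 RPM.

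FZD7, FZD10 and FZD5 were the Frizzleds with the highest levels in blastocysts. FZD7 (chromosome 2, from 90571270 to 90573476) was 0 to 25.5 RPKM in knockouts (median 13.6) and 0 to 25.6 in controls (median 12.8). FZD10 (chromosome 17, from 46932749 to 46934705) was 0.996 to 16.9 in knockouts (median 11.4) and 0 to 22.2 in controls (median 10.3). FZD5 (chromosome 2, from 96039164 to 96040921) was 0 to 13.0 in knockouts (median 8.43) and 0 to 18.4 in controls (median 5.02). Their order was not fixed: FZD7 was higher than FZD10 in 14 blastocysts and lower in 11, and FZD10 was higher than FZD5 in 16 and lower in 9. The step below them was clearer, with FZD5 higher than FZD4 in 23 embryos and lower in 1.

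FZD4 (chromosome 29, from 8618154 to 8623002), FZD8 and FZD1 lay near 1 RPKM. FZD4 was 0 to 7.73 in knockout blastocysts (median 1.21) and 0 to 1.94 in controls (median 0.803), and the 2 highest values, in knockouts 17 and 3, rested on 8 and 6 reads. FZD8 was 0 to 8.46 in knockouts (median 0) and 0 to 4.69 in controls (median 1.05), and without the libraries in doubt the medians were 0.766 and 1.11. FZD1 was 0 to 3.75 in knockouts (median 0.807) and 0 to 5.83 in controls (median 0.626). FZD3 (287 reads), FZD6 (183) and FZD9 (154) were read in 18 to 21 blastocysts, and FZD2 had 13 reads in 6, all controls. FZD4 and FZD8 could not be ordered, since FZD4 was higher in 10 embryos and FZD8 in 11.

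In morulae the Frizzled counts were small, and the knockouts were at 0 more often than not. FZD7 was 4.67, 15.7, 12.8 and 3.10 RPKM in the controls and 0, 0, 0 and 29.1 in the knockouts. FZD10 was 0, 10.2, 5.41 and 12.8 in controls and 4.22, 0, 0 and 0 in knockouts, the 4.22 being 1 read. FZD5 was 0, 4.61, 12.04 and 3.89 in controls and 9.39, 0, 25.6 and 0 in knockouts. Every one of these pairs of groups overlapped. FZD4 was 0, 1.22, 0 and 1.88 in controls and 0, 0, 9.28 and 6.62 in knockouts, where 9.28 was 2 reads and 6.62 was 4. FZD8 was 0, 1.82, 1.70 and 0 in controls and 7.96, 12.3, 0 and 0 in knockouts, from 2 reads and 1 read. FZD6 (29 reads), FZD3 (26), FZD9 (15), FZD1 (14) and FZD2 (4) made up the rest. FZD6 and FZD9 had no knockout read, where 0 reads of 344068 allow up to 8.72 RPM.

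LRP5 was the co-receptor with the most reads, 1159 in 26 of 26 blastocysts, and RYK (634) and LRP6 (561) followed, while ROR1 had 28 reads in 8 embryos. Levels were low on the span scale, since these genes cover more than 1e+05 bases each. LRP5 (chromosome 29, from 45807108 to 45927821) was 0.0613 to 0.652 RPKM in knockouts (median 0.212) and 0.0835 to 0.578 in controls (median 0.315). LRP5 was higher than RYK in 18 blastocysts and lower in 8. LRP6 was read in 5 of 9 knockouts and 16 of 17 controls, with medians of 0.0270 and 0.113 RPKM (0.0640 and 0.125 without the libraries in doubt). The knockouts at 0 (3, 4, 57 and 58) had totals of 44879 to 254758 reads. Controls 18, 11 and 35, with totals of 115512 to 156832 reads, had 5, 3 and 4 reads of LRP6. Knockout 17, with a total of 216436, had 1. The part of depth was not tested. In morulae LRP5 had 86 reads, RYK 83 and LRP6 32, each in 5 embryos, the same 3 controls and 2 knockouts (5 and 1).

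The intracellular members were the most evenly read. CTNNB1 (chromosome 22, from 13798884 to 13845848) had 7013 reads and GSK3A (chromosome 18, from 51032328 to 51042229) 3056, each in 25 of 26 blastocysts, all but control 12. CTNNB1 was 2.05 to 5.95 RPKM in knockouts (median 4.39) and 0 to 7.50 in controls (median 4.02). GSK3A, 1 of the kinases that phosphorylate β-catenin, was 3.74 to 14.6 in knockouts (median 9.08) and 0 to 15.04 in controls (median 10.1), and exceeded CTNNB1 in 25 embryos on the span scale.

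The Dishevelled and AXIN genes lay lower. DVL1 medians were 2.07 RPKM in knockout and 1.59 in control blastocysts, DVL2 medians 3.12 and 2.79, and DVL3 medians 3.06 and 2.84. AXIN1, the scaffold of the destruction complex, had medians of 1.87 and 1.995. AXIN2, both a scaffold and a widely used transcriptional target of β-catenin, had medians of 0.825 (range 0 to 1.56) and 0.924 (0 to 2.96). APC had 1333 reads and GSK3B 736, and both fell under the level needed for testing on the span scale, with medians of 0.322 and 0.109 RPKM in knockouts and 0.291 and 0.111 in controls. Between DVL2 and DVL3 no order held, at 13 embryos against 12.

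In morulae CTNNB1 was 4.16, 6.46, 5.33 and 8.20 RPKM in the controls and 1.58, 0.542, 3.35 and 4.27 in the knockouts. The highest knockout lay just above the lowest control. GSK3A was 11.4, 10.8, 3.20 and 8.52 in controls and 4.9997, 2.57, 4.54 and 13.0 in knockouts. DVL2 was 2.51, 3.09, 4.30 and 1.11 in controls and 5.03, 6.21, 5.49 and 2.93 in knockouts, from 2 to 5 reads per knockout, and 3 of 4 knockouts lay above all controls. AXIN1 was 1.81, 1.93, 2.37 and 1.53 in controls and 2.65, 0, 1.97 and 1.88 in knockouts. DVL1 was 2.53, 2.17, 0.577 and 1.68 in controls and 0.676, 0, 0 and 2.63 in knockouts, and DVL3 was 1.37, 2.29, 3.04 and 2.12 against 3.83, 0, 0 and 2.13. AXIN2 (80 reads) was read in 4 controls and 2 knockouts, APC (147) in all 8 morulae and GSK3B (89) in 7.

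TCF7L1 led the TCF/LEF factors. It covers chromosome 11 from 49674139 to 49876828 and had 3468 reads in 25 of 26 blastocysts, more than any other member but CTNNB1 and WNT6. Its level was 0.333 to 0.986 RPKM in knockouts (median 0.461) and 0 to 1.001 in controls (median 0.722), and it was higher than TCF7 in 22 embryos against 3. TCF7L2 had 732 reads and TCF7 194. LEF1 had 131 reads, of which 113 were in control blastocyst 12, where 153 reads of TCF7L2 also lay. In morulae TCF7L1 was 0.305, 0.442, 0.278 and 0.517 RPKM in controls and 0.204, 0.126, 0.333 and 0.158 in knockouts. Knockout 49 alone reached into the control range, on 3 reads. TCF7L2 had 70 reads in 4 of 4 controls and 1 read in the knockouts, and TCF7 had 10 reads in 3 controls and none in knockouts. These counts are not scaled for depth: knockout morulae held 344068 reads in all and controls 2249075. For TCF7, 0 knockout reads allow up to 8.72 RPM, for counting error only.

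The study's main comparison asks what loss of CSF2RA does, and among the WNT members of blastocysts no difference passed the test. Knockouts and controls were compared by limma-trend on log2(RPKM + 1) with sex as a term, over the 6283 genes with an RPKM of at least 1 in at least 9 blastocysts, and p-values were adjusted over those genes by the method of Benjamini and Hochberg. The filter left 14 members: WNT6, FZD1, FZD4, FZD5, FZD7, FZD8, FZD10, CTNNB1, GSK3A, AXIN1, AXIN2, DVL1, DVL2 and DVL3. None was called at an adjusted p of 0.05, against 0% of all genes tested, and none had an unadjusted p under 0.05, against 2.75% of all genes tested. No gene tested separated the genotypes without overlap (0%). Changes are knockout minus control: 10 members had a value above 0 and 4 below, with a median of 0.12 on the log2 scale beside 0.08 for all genes tested. Without the libraries in doubt these medians were 0.0022 and -0.02, and 7 members had a value above 0 and 7 below.

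**Figure D3:**
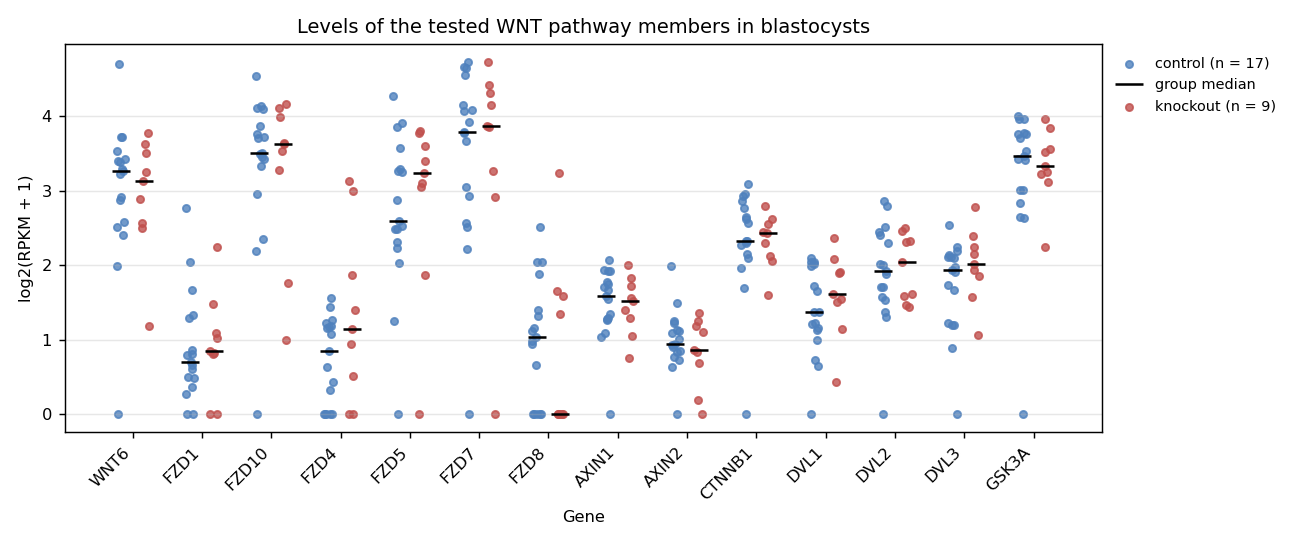
Level as log2(RPKM + 1) (y axis) of the 14 tested members (x axis) in each of 17 control (blue) and 9 knockout (red) blastocysts, with group medians as black bars. The genotypes overlap for every gene, and control blastocyst 12 is the point at 0 in the control column of genes otherwise read throughout.

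FZD4 had the smallest p of the 14. Its change was 0.56 ± 0.34 (log2, SE of the fit; 9 knockouts against 17 controls), with an unadjusted p of 0.112 and an adjusted p of 0.994 by limma. In females alone (7 knockouts against 8 controls) the change was 0.57, with p = 0.223 by limma. Without the libraries in doubt FZD4 still had the smallest p, 0.0771 (adjusted p = 0.999 by limma), and the highest change of any member was 0.63. By voom, which weights recovered reads by their precision, FZD4 changed by 1.22 with an unadjusted p of 0.0283 and an adjusted p of 0.873. The levels overlap widely, since 2 of 9 knockouts were at 0.

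The core of the pathway showed small values with wide errors. CTNNB1 differed by 0.10 ± 0.27 on the log2 scale, GSK3A by 0.23 ± 0.35, AXIN1 by 0.06 ± 0.20 and AXIN2 by -0.07 ± 0.18. WNT6 differed by 0.11 ± 0.38 and FZD7 by -0.0049 ± 0.54. DVL3 (0.32 ± 0.26) and DVL1 (0.30 ± 0.25) came after FZD4 in order of p, at 0.236 and 0.239 by limma. Leaving out control blastocyst 12 turned the sign for WNT6 (to -0.15), GSK3A (to -0.07), CTNNB1 (to -0.11), FZD10 (to -0.14), FZD5 (to -0.15), AXIN1 (to -0.07) and DVL2 (to -0.00072). The signs of these 7 changes thus depended on 1 library.

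A further 13 members had at least 5 reads in at least 9 blastocysts but failed the RPKM filter: FZD3, FZD6, FZD9, RSPO3, TCF7, TCF7L1, TCF7L2, LRP5, LRP6, RYK, APC, GSK3B and WNT5B. With a filter on reads in place of RPKM, 25 members were tested and none was called, against 0% of the 9384 genes in that fit. At an unadjusted p under 0.05 there was 1 member, against 3.16% of those genes. It was TCF7, which had an unadjusted p of 0.0381, with a change of 0.20 and an adjusted p of 0.995 by limma. Its highest value, 1.03 RPKM in knockout 57, rested on 2 reads. Without the libraries in doubt the TCF7 change was 0.12 (unadjusted p = 0.161), and FZD3 had the smallest unadjusted p, 0.0320, with a change of -0.07 and an adjusted p of 0.999 by limma. On a scale of reads by library size without gene length, LRP6 differed by -1.47 (unadjusted p = 0.0383, adjusted p = 0.929 by limma). In that fit 219 of 9384 genes had an unadjusted p under 0.05. The LRP6 change was -0.07 on RPKM with the filter on reads (unadjusted p = 0.125 by limma) and -0.62 by voom (unadjusted p = 0.317).

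The authors' deposited table, made with sex as a block, gave no blastocyst member an FDR under 0.05, where it called 15 genes in all. It gave 3 of 55 members a p under 0.05, against 7.71% of all genes in that table. They were WNT1 (log2 change 2.95, p = 0.000775, FDR 0.124), WNT9B (-2.92, p = 0.0306) and WNT2 (1.58, p = 0.0448), all in the authors' deposited table. WNT1 rests on 3 reads, WNT2 on 5 and WNT9B on 26 of which 14 were in control 37. The authors' deposited table gave FZD4 a log2 change of 1.23 with p = 0.0565.

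Morulae, with 4 knockouts against 4 controls, gave 12 members to test out of 5021 genes with an RPKM of at least 1 in at least 4 embryos: the 14 above without FZD1 and AXIN2. None was called, against 0% of all genes tested, and none had an unadjusted p under 0.05, against 6.87% of all genes tested. None of the 12 separated the genotypes without overlap, where 8.46% of genes tested did. Knockout minus control was above 0 for 3 members and below 0 for 9. The median was -0.28 on the log2 scale beside -0.34 for all genes tested, so the members lay near the shift of the whole table. Under quantile scaling the median of all genes moved to 0.05 and the split turned to 9 above and 3 below.

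**Figure D4:**
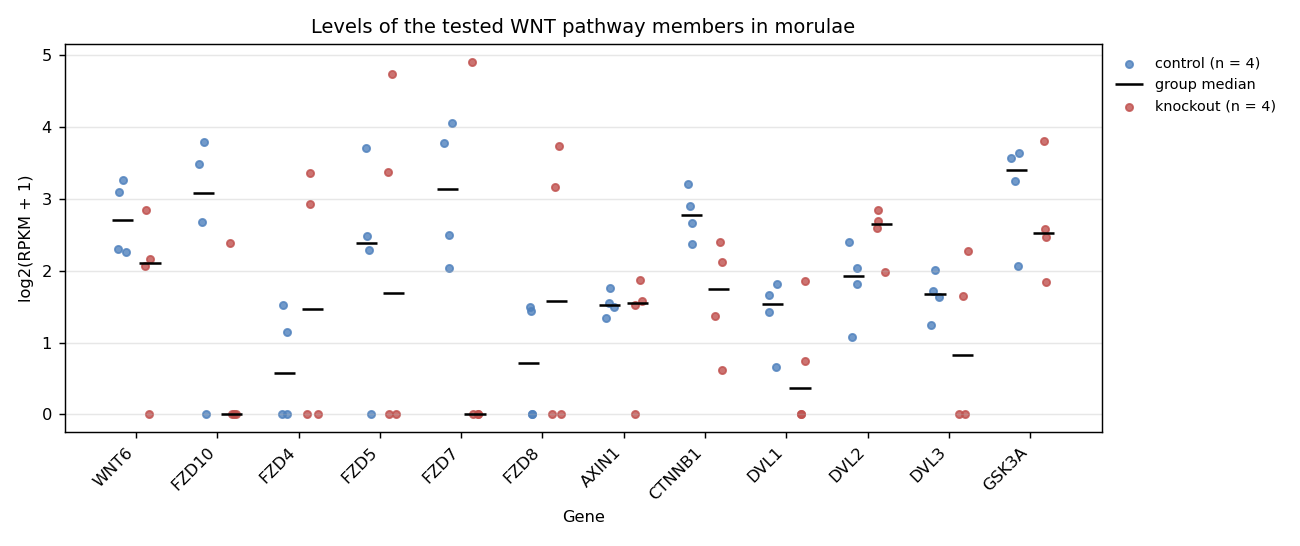
Level as log2(RPKM + 1) (y axis) of the 12 tested members (x axis) in each of 4 control (blue) and 4 knockout (red) morulae, with group medians as black bars. Many knockout points lie at 0, and single points stand high for FZD4, FZD5, FZD7 and FZD8, which rest on 1 to 8 reads.

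FZD4 again had the smallest p in morulae, with a change of 1.58 ± 0.87 (log2, SE of the fit), an unadjusted p of 0.101 and an adjusted p of 0.849 by limma; with quantile scaling its unadjusted p was 0.0372 and the smallest adjusted p of any member 0.691. FZD10 differed by -1.26 ± 0.97, CTNNB1 by -0.76 ± 0.63, DVL2 by 0.52 ± 0.61 and FZD8 by 0.66 ± 1.04. FZD5, at 0 in 2 of 4 knockouts, differed by -0.06 ± 1.41 and FZD7, at 0 in 3 of 4, by -0.44 ± 0.95. FZD10 turned to 0.79 without knockout 1, FZD7 to 1.62 without control 73, FZD5 to 2.70 without knockout 1 and FZD8 to -0.98 without control 73. Knockout 1 was the only male knockout and control 73 the only female control. With sex as a term, leaving out either rests the change on the other embryo against the opposite genotype of its sex. CTNNB1 kept its sign whichever embryo was left out (-0.997 to -0.52). FZD4 did so in the 6 of 8 such fits where it passed the filter (1.08 to 2.04).

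Without knockout morulae 21 and 49, 17 members were tested and none was called, against 0.0157% of the 6385 genes in that fit. None had an unadjusted p under 0.05, against 11.8% of those genes. The median of the members was then -0.03 and of all genes -0.08, on the log2 scale. With the filter on reads and without those libraries, RSPO3 (change 0.54 ± 0.16, unadjusted p = 0.0113, adjusted p = 0.287) and TCF7L2 (-0.19 ± 0.08, unadjusted p = 0.0442, adjusted p = 0.387) were lowest in p by limma. Neither was called, against 0% of the 8079 genes in that fit, of which 12.7% had an unadjusted p under 0.05. In the authors' deposited table no morula member had an FDR under 0.05, with 27 genes called in all. A p under 0.05 was given to 2 of 42 members, against 5.77% of all genes in that table: RSPO3 (log2 change 1.97, p = 0.0209, FDR 0.670) and TCF7L2 (-3.23, p = 0.0257). FZD4 had a log2 change of 2.65 with p = 0.0501 in the authors' deposited table.

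**Figure D5:**
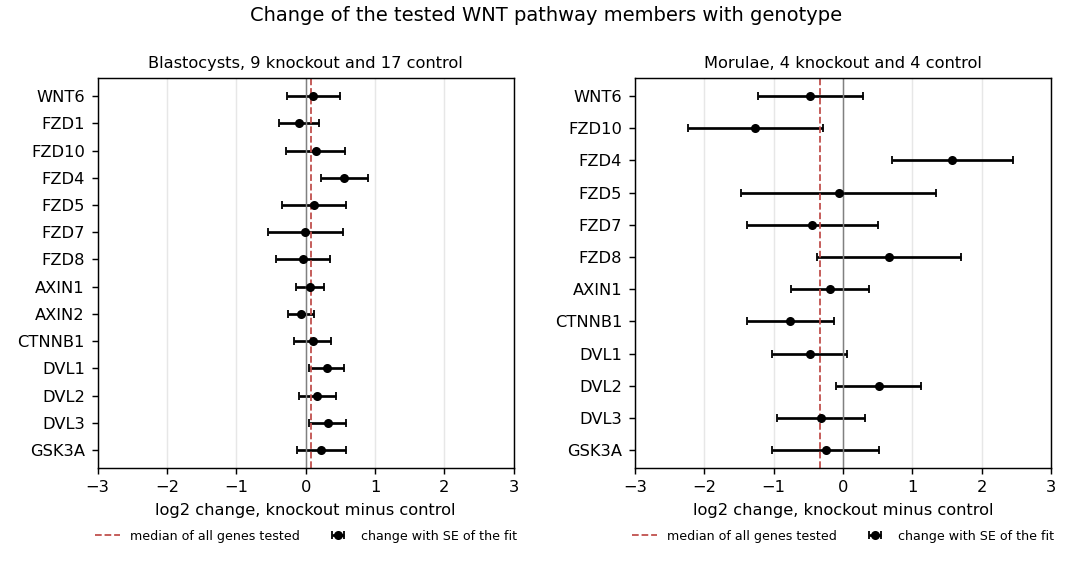
Change with genotype (x axis, log2, knockout minus control) of each tested member (y axis), with the SE of the fit as error bars, in blastocysts (left) and morulae (right); the dashed line is the median of all genes tested. Blastocyst values lie within 0.56 of 0, and in morulae FZD4 (1.58) and FZD10 (-1.26) are the farthest out, with wide bars.

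The tables of the 2 stages were normalized apart, so levels across stages are set side by side with no test. Of the 12 members tested at both stages, 9 had a higher median in control blastocysts than in control morulae (10 without the libraries in doubt, and 7 on reads by library size without gene length). WNT6 medians were 8.61 RPKM in control blastocysts and 5.75 in control morulae, and 9 of 17 control blastocysts lay above all 4 morulae. TCF7L1 medians were 0.722 and 0.373, with 11 of 17 above all 4 morulae. LRP6 was similar in pattern (0.113 and 0.0370, 11 of 17), but it failed the RPKM filter in both stages. Its level in control morulae rested on 0, 24, 3 and 1 reads. CTNNB1 ran the other way, at 4.02 in control blastocysts and 5.89 in control morulae, and all 4 morulae lay above the blastocyst median. GSK3A (10.1 and 9.68), AXIN1 (1.995 and 1.87) and DVL2 (2.785 and 2.801) were close. WNT6 as the leading ligand and TCF7L1 as the leading TCF/LEF factor were common to both stages.

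No tested member passed the test between male and female blastocysts (11 against 15, with genotype as a term). None was called, against 0% of all genes tested, and none had an unadjusted p under 0.05, against 10.9% of all genes tested. FZD10 had the smallest p: males had 3.57 to 22.2 RPKM (median 13.6) and females 0 to 16.9 (median 10.3), a change of 0.78 ± 0.41 (log2, male minus female; p = 0.0672, adjusted p = 0.433 by limma). AXIN2 followed, at 0.31 ± 0.18 (p = 0.0868, adjusted p = 0.439 by limma), with medians of 1.18 in males and 0.783 in females. The median over the 14 members was 0.29, beside 0.26 for all genes. Without the libraries in doubt FZD1, lower in males, had p = 0.0398 (change -0.58; the smallest adjusted p of any member was 0.473 by limma). The interaction of sex and genotype was called for no member, against 0% of all genes tested, and no member had an unadjusted p under 0.05, against 1.5%. With no filter 17 of 18442 genes were called for the interaction and no member was, the smallest p being that of WNT4 (0.00145, adjusted p = 0.173 by limma). Only 2 knockout blastocysts were male.

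The genes around the members were counted in the same fits, from lists drawn up with earlier results of these data known. Of 108 listed genes for WNT secretion, other inhibitors, β-catenin turnover, its nuclear partners, its targets and the polarity branch, 35 were tested in blastocysts. Knockout minus control was above 0 for 24 and below for 11, and none was called or had an unadjusted p under 0.05 by limma. Among all 6283 genes tested 3915 were above 0, 0% were called and 2.75% had an unadjusted p under 0.05. In secretion and R-spondin receptors, PORCN, which attaches the lipid to WNT proteins, differed by 0.51 ± 0.36 and the proteoglycan SDC1 by -0.17 ± 0.30. In β-catenin turnover, the phosphatase subunit PPP2R1A differed by 0.37 ± 0.30 and the ubiquitin ligase scaffold CUL1 by 0.10 ± 0.13. Among nuclear partners, the co-repressor TLE5 differed by 0.30 ± 0.31 and the helicase RUVBL2 by 0.31 ± 0.32. Among targets, cyclin gene CCND2 was 7.20 to 13.2 RPKM in knockouts (median 8.97) and 0 to 19.8 in controls (median 6.40), a change of 0.64 ± 0.32 (p = 0.0523, adjusted p = 0.994 by limma). ID2, an inhibitor of helix-loop-helix factors, had medians of 15.2 and 23.2 and a change of -1.05 ± 0.53 (p = 0.0572). In the polarity branch, the receptor-like PTK7 had medians of 9.64 and 5.21 (0.56 ± 0.28, p = 0.0564 by limma), and PRICKLE3 differed by 0.32 ± 0.30. The list of other inhibitors had no gene to test in blastocysts and SOST alone in morulae.

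In morulae 33 of these genes were tested, 5 with a value above 0 and 28 below, and none was called. Among all 5021 genes tested 1548 had a value above 0, so most of the table lay below 0 too, and 0% were called. An unadjusted p under 0.05 by limma was reached by 2 of the 33, against 6.87% of all genes tested. CAMK2G, a calcium-dependent kinase of the polarity and calcium branch, was 0 to 0.298 RPKM in knockouts and 1.11 to 1.398 in controls, without overlap. CAMK2G passed the filter (at least 1 RPKM in at least 4 embryos) through the controls alone, which favours a lack of overlap and a small p. Its change was -1.09 ± 0.27 (unadjusted p = 0.00228, adjusted p = 0.201 by limma). SCRIB, a polarity scaffold, was 0 to 1.31 in knockouts and 1.88 to 4.77 in controls, also without overlap (-1.27 ± 0.54, unadjusted p = 0.0400, adjusted p = 0.697 by limma). In all, 7 of the 33 genes (21.2%) had groups that did not overlap, against 8.46% of all genes tested. The other 5 were CCND2, RHOA, RAC1, PPP2CA and SMARCA4. All 7 were lower in knockouts, as were 397 of the 425 genes without overlap among all genes tested. All 7 tested target genes had values below 0, with a median of -0.81 beside -0.34 for all genes, among them ID2 (-3.39 ± 1.54) and CCND2 (-1.52 ± 0.73), and none passed. Elsewhere the smallest p were for CSNK1G2 (0.65 ± 0.56) and USP7 (-0.63 ± 0.60) in turnover, CBY1 (-1.03 ± 0.67) and CTBP1 (-0.67 ± 0.50) in nuclear partners, TMED2 (-0.44 ± 0.68) and PORCN (-0.05 ± 0.89) in secretion, and SOST (-0.36 ± 0.64).

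The summed level of trophectoderm markers separated the genotypes in morulae, and sums of the other marker lists overlapped. The summed level of 12 trophectoderm markers was 307 to 1495 RPKM in knockout and 3104 to 3856 in control morulae, without overlap. KRT18 and KRT8 weighed most in this sum, with medians over the 8 morulae of 1205 and 725 RPKM, against 10.1 for CDX2. CDX2, also a listed target gene, overlapped, at 0 to 15.5 in knockouts and 2.81 to 19.9 in controls. Among all 5021 genes tested in morulae, 397 were lower in knockouts without overlap. In blastocysts the sum over 13 markers was 2260 to 5020 in knockouts and 227 to 7818 in controls, with overlap. Fewer cells of a type and less RNA per cell cannot be told apart in these whole embryos, and the part of the marker difference in the morula values above was not tested. Epiblast sums overlapped in morulae (16.6 to 202 in knockouts, 72.5 to 136 in controls), as did hypoblast sums (6.19 to 142 and 9.93 to 31.1). Markers of other cells were low: cumulus sums reached 8.31 RPKM in knockout and 7.86 in control blastocysts, leukocyte sums 1.36 and 2.81, fibroblast sums 2.56 and 5.51, oviduct and uterine epithelium sums 2.88 and 1.28, and erythrocyte sums 27.3 and 86.2. In morulae the corresponding highest sums were 3.10 in knockouts and 3.96 in controls for cumulus, 17.7 and 39.4 for leukocyte, 16.8 and 30.6 for fibroblast, 17.2 and 4.75 for oviduct and uterine epithelium, and 19.96 and 29.4 for erythrocyte. Their part in the results was not tested.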

How the data were processed

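RNA of 34 single embryos was analysed, grouped by the titles and characteristics in the labels. Per the labels' protocols RNA was extracted with a column kit and made into stranded libraries. Per the submitters' processing notes FastQC, featureCounts and edgeR were used on ARS-UCD1.2, and their versions are not given in the sources used here. The authors deposited RPKM per gene and embryo, in 1 table per stage; for morulae the unit is unnamed in the table and was taken as RPKM because the values behave alike. The authors also deposited, per gene, a log2 fold change with its p-value and FDR. The values equal whole reads divided by genomic span and effective library size, so long genes are compressed near 0. RPKM are not counts, so the test was limma-trend (limma 3.58.1, R 4.3.3; robust, two-sided) on log2(RPKM + 1) with sex as a term, which understates changes of low genes, with Benjamini-Hochberg adjustment over all genes tested at 0.05. It was tried on simulated data with large planted changes alone, so that trial cannot tell how well small changes would be found. Nothing says that embryos shared parents, and each embryo was 1 replicate; numbers identify embryos and pair none. Control blastocyst 72 is male by title, which was followed, but female by column name. Members and lists were chosen with earlier results of these data known. Every member is named; members passing the filter, or with the most reads of their role, have values by group, and each list outside the members gives the 2 genes with the smallest p per stage. Alternatives were another pseudocount, filters on reads or none, values scaled by library size alone, quantile and median ratio scaling, voom, quality weights, no sex term, the other sex of embryo 72, females alone, and leaving out the libraries in doubt or each embryo in turn; leaving out libraries in doubt with the filter on reads was added after seeing the data. Where embryos were left out, the filters asked for as many embryos as knockouts were left. With library totals from 43679 to 17598170 reads, a level of 0 in 1 embryo allows up to 68.7 RPM in the shallowest morula and 0.170 RPM in the deepest blastocyst, for counting error only.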

Additional observations from a re-analysis of the deposited data

Results flagged for a closer look

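In groups of 4 to 10 embryos, 38 sets of values of the tested members were checked for an embryo far from the rest of its group, by the gap to its neighbour over the whole range. Chance gives about 1 such embryo in 20 sets of untied values, and 4 were found. That rate does not hold for the 2 morula sets below, where the other knockouts were all at 0 and any read stands apart.

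Knockout blastocyst 31 stood apart for FZD8, at 8.46 RPKM from 9 reads where the other knockouts had 0 to 2.16, and for FZD1, at 3.75 RPKM from 8 reads where the others had 0 to 1.78. Knockout morula 1 stood apart for FZD7, at 29.1 RPKM from 8 reads where the other 3 were at 0. Knockout morula 5 stood apart for FZD10, at 4.22 RPKM from 1 read where the others were at 0.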

How the results depend on the processing

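No WNT member was called under any alternative run, in either stage, between sexes or for the interaction, and leaving out each embryo in turn gave 0 called members in all 4 comparisons. Signs of uncalled changes were unstable: against the values given, the sign changed in 66 of 519 single-gene repeats in blastocysts (11 of 14 members), 20 of 185 in morulae (8 of 12 members) and 25 of 493 between sexes (8 of 14 members).

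Over all genes, 0 were called in morulae, against 44 with log2(RPKM + 0.1), 33 with no sex term, 1 by voom and 1 without the libraries in doubt. Between sexes 0 were called, against 16 with quantile scaling, 127 with quality weights and 27 without the libraries in doubt, and 0 to 1 when each embryo was left out (1 without control 12). For the interaction 0 were called, against 17 with no filter. The cause was not tested. Counting only members read in at least 1 in 2 embryos gave 31 members in blastocysts and 25 in morulae, by construction. Leaving out each morula gave 37 to 42 members read. No paired analysis was possible because each embryo has its own number. The filters limit the rest. In blastocysts 13 members with reads enough failed the RPKM filter, where reads are divided by the genomic span. In morulae 7 of 12 members tested did not reach 5 reads in 4 embryos.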

Other observations

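Control blastocyst 12 held 113 of the 131 blastocyst reads of LEF1, 153 of TCF7L2 and 54 of LRP5, and none of CTNNB1, GSK3A or WNT6. Among the 55 members, 14 have a genomic span at least as long as the shortest of the 6 read there, and the longest span of the 10 members read in each other blastocyst and absent here was 202689 bases.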
